A study of Mus musculus with 6 samples.

Results

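The expression of 10 cell-cell adhesion genes, among the 11417 genes of the deposited table, was followed across 3 mouse mammary cell lines. They were chosen by symbol: Cdh1, Cdh2 and Cdh3, which encode E-cadherin, N-cadherin and P-cadherin; Epcam, an epithelial surface glycoprotein; and the desmosome genes Dsg2, Dsc2, Jup, Pkp3, Dsp and Perp. All 10 were listed with a value in each library, and all 10 passed the filter for testing, at least 1 RPKM (a read count scaled by gene length and sequencing depth) in at least 2 libraries.

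The libraries profiled poly(A) RNA from the established lines BC44, HC11 and C57MG, with 2 libraries per line. The labels call all 3 lines mammary epithelial and describe the cells as untreated and grown on plastic, and they name no genetic change. BC44 and HC11 both grew in RPMI containing 10% serum plus insulin at 5 µg/ml, and EGF at 10 ng/ml was present for HC11 only. C57MG grew in DMEM containing 10% serum plus insulin at 10 µg/ml. RNA was taken 2 days after plating, and since each line had its own medium, line and medium cannot be told apart. Nothing in the labels says that the 2 libraries of a line came from separate cultures, so p-values measure only the spread between these libraries. Estimated depth was 14370000 to 18380000 reads per library.

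Classical cadherins are single-pass membrane proteins whose outer domains bind the same cadherin on a neighbouring cell and whose tails bind catenins, which join them to actin. Desmosomes use the related desmogleins and desmocollins, and their tails bind plakoglobin and plakophilins, which attach desmoplakin and through it the keratin filaments. In the mammary gland E-cadherin is found in both epithelial layers and P-cadherin mainly in the basal layer, while N-cadherin is typical of mesenchymal and neural cells and is often raised where epithelial cells lose E-cadherin.

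The label mammary epithelial was checked with marker genes that are not among the 10. Of 13 listed epithelial markers, 13 reached 1 RPKM in both HC11 libraries, 9 in both BC44 libraries and 1, Krt14, in both C57MG libraries. Their summed level was 4970 and 4783 RPKM in BC44, 2920 and 2121 RPKM in HC11, and 136 and 65.6 RPKM in C57MG replicates 1 and 2. Krt18 and Cldn3 were listed at 0 in both BC44 libraries, and Krt7 and Cldn3 in both C57MG libraries. In the BC44 libraries Krt8 was at 0.0260% and 0.0438% of its HC11 mean and Krt7 at 0.132% and 0.0271%. The 12 listed mesenchymal markers summed to 7828 and 7647 RPKM in C57MG against 258 to 398 RPKM in the other 4 libraries. The 2 listed endothelial markers summed to at most 2.38 RPKM and the 1 listed immune marker to at most 3.30 RPKM in any library. The 2 listed neural markers summed to 77.7 and 95.5 RPKM in BC44, 22.7 and 32.7 RPKM in HC11, and 62.1 and 57.1 RPKM in C57MG, and their part in the Cdh2 values was not tested. C57MG thus lacked most of the defining epithelial markers at this depth. In these bulk libraries, fewer cells of a type and less RNA per cell cannot be told apart.

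Cdh1, Cdh3 and Cdh2 divided the lines differently. Cdh1 was high in BC44 and HC11, Cdh3 was highest in BC44, and both were close to absent in C57MG. Cdh2 was highest in C57MG, low in BC44 and lowest in HC11. Cdh1 was at 137 and 119.5 RPKM in BC44 replicates 1 and 2, at 107 and 110.0 RPKM in HC11, and at 1.09 and 0 RPKM in C57MG. The C57MG values correspond to an estimated 90 reads and 0 reads. Against C57MG, Cdh1 was higher by 6.48 on the log2(RPKM + 1) scale in BC44 (SE 0.29, limma adjusted p = 9.86e-07) and by 6.24 in HC11 (SE 0.29, limma adjusted p = 1.40e-06). A value of 0 allows up to 3 reads, or 0.0425 RPKM for Cdh1 in C57MG replicate 2, so the BC44 mean of Cdh1 was at least 3022-fold higher than that library. The HC11 mean was at least 2555-fold higher. Against C57MG replicate 1 these ratios were 118 and 99.7. Between BC44 and HC11 the difference was 0.24 (SE 0.29, limma adjusted p = 0.544), although the lower BC44 library stood above the higher HC11 library. That SE includes the spread of the C57MG libraries. In a fit of the BC44 and HC11 libraries alone the difference did not pass either (limma adjusted p = 0.0986).

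Cdh3 separated all 3 lines. It was at 114 and 108 RPKM in BC44, at 23.3 and 22.6 RPKM in HC11, and at 0.975 and 0.082 RPKM in C57MG. Its mean was 4.83 times as high in BC44 as in HC11, a difference of 2.22 on the log2(RPKM + 1) scale (SE 0.24, limma adjusted p = 0.000289). On that scale it was the largest difference among the 10 genes in this comparison, while by ratio of mean RPKM Cdh2 differed more (5.39). Against C57MG, Cdh3 was higher by 6.26 in BC44 and by 4.04 in HC11 (SE 0.24 each, limma adjusted p = 5.00e-07 and 4.88e-06). Cdh3 and Cdh1 are neighbouring protein-coding genes on chromosome 8. The ratio of Cdh3 to Cdh1 RPKM was 0.827 and 0.905 in BC44 and 0.217 and 0.206 in HC11, so BC44 carried nearly as much Cdh3 as Cdh1 and HC11 did not.

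Cdh2 ran the other way. Both C57MG libraries had 8.27 RPKM, on an estimated 1201 and 1028 reads. The BC44 libraries had 2.03 and 1.45 RPKM (238 and 203 reads), and the HC11 libraries 0.334 and 0.311 RPKM (50 and 36 reads). The libraries of the 3 lines did not overlap. C57MG exceeded BC44 by 1.77 (SE 0.12, limma adjusted p = 9.19e-06) and HC11 by 2.81 (SE 0.12, limma adjusted p = 1.03e-06), and BC44 exceeded HC11 by 1.04 (SE 0.12, limma adjusted p = 0.000435), all on the log2(RPKM + 1) scale. The ratios of mean RPKM were 4.76, 25.6 and 5.39. Set against the mean of C57MG, Cdh2 reached 24.5% and 17.5% in the BC44 libraries and 4.04% and 3.76% in the HC11 libraries. Genes private to C57MG, chosen for a low level in the other lines, had medians of 0.666% and 2.02% of their C57MG level in the BC44 libraries and 0.251% and 0.350% in the HC11 libraries. The part of that low signal in the Cdh2 values was not tested.

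**Figure D1:**
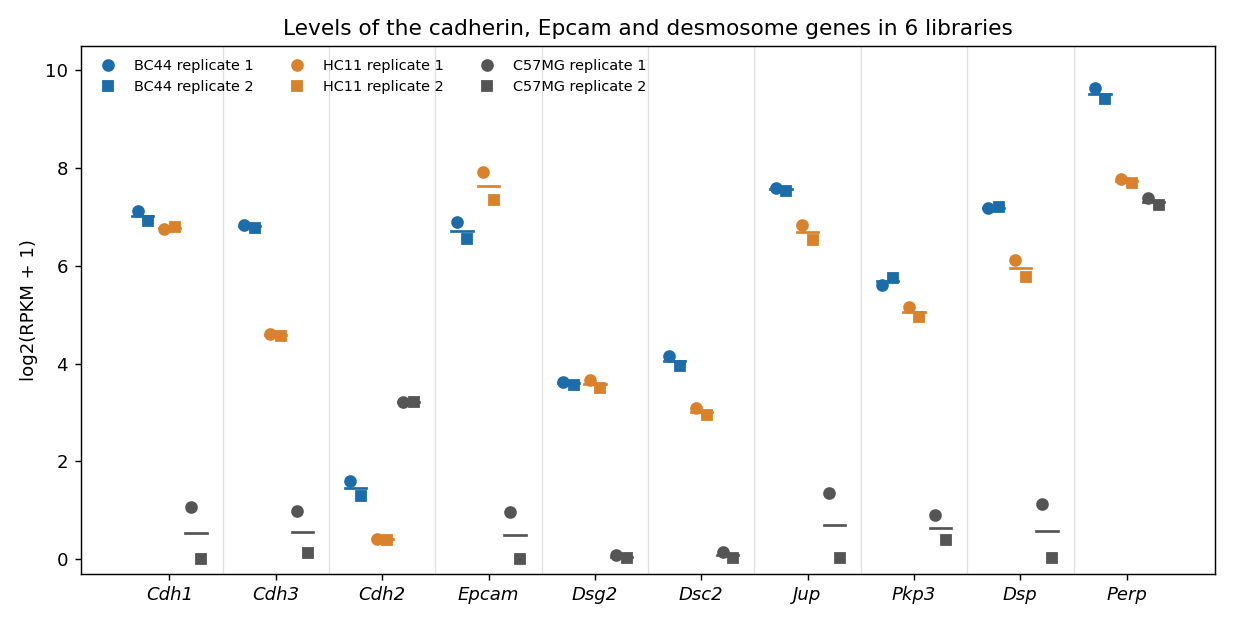
Levels of the 10 genes as log2(RPKM + 1) on the vertical axis, by gene on the horizontal axis; circles are replicate 1, squares replicate 2, and short lines the mean of the 2 libraries of a line. Cdh2 alone is highest in C57MG, Perp stays high in all 6 libraries, and the other 8 genes lie below 2 in C57MG.

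RPKM is scaled by gene length, so the 3 cadherins can be set side by side within a library. Cdh1 made up 54.3% and 52.2% of their summed RPKM in BC44 and 81.9% and 82.7% in HC11. Cdh2 made up 80.0% and 99.0% in C57MG, but 0.801% and 0.632% in BC44 and 0.255% and 0.234% in HC11. Among these 3 genes, the leading transcript was therefore Cdh1 in BC44 and HC11 and Cdh2 in C57MG. The totals were unequal too: the 3 genes summed to 253 and 229 RPKM in BC44, 131 and 133 RPKM in HC11, and 10.3 and 8.35 RPKM in C57MG. The level of Cdh2 in C57MG was thus well under that of Cdh1 in the other 2 lines.

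**Figure D2:**
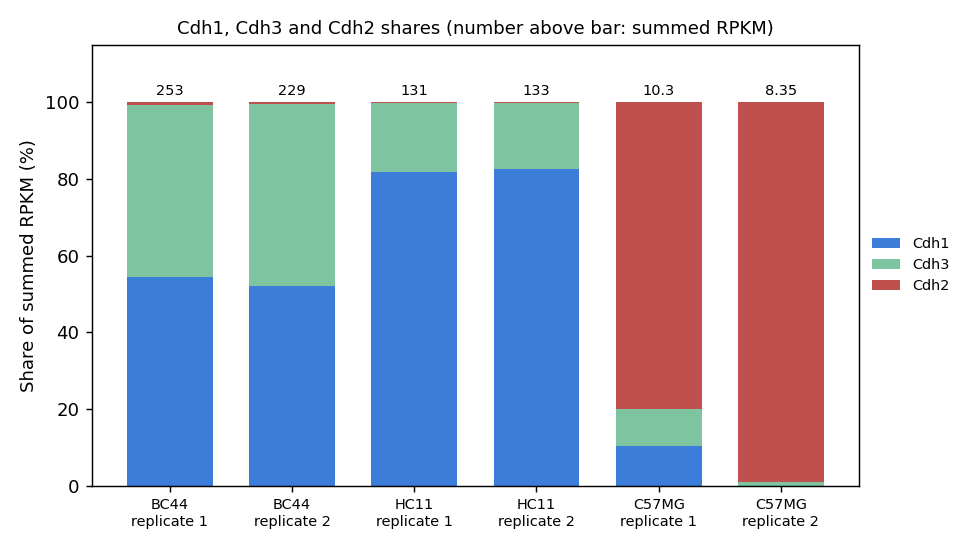
Shares of Cdh1, Cdh3 and Cdh2 in their summed RPKM (vertical axis, %) for each of the 6 libraries (horizontal axis), with the summed RPKM printed above each bar. Cdh2 takes 80.0% and 99.0% in C57MG and under 1% in the other 4 libraries.

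Ratios to Cdh2 were taken within each library as a description, because with 2 libraries per line the smallest p of an exact two-sided permutation test is 0.33. The BC44 libraries had Cdh1 to Cdh2 RPKM ratios of 67.7 and 82.5, the HC11 libraries of 321 and 354, and the C57MG libraries of 0.132 and 0. For Cdh3 the BC44 ratios were 56.1 and 74.6, the HC11 ratios 69.8 and 72.8, and the C57MG ratios 0.118 and 0.00992. BC44 and HC11 thus overlapped in Cdh3 over Cdh2, both genes being lower in HC11, and did not overlap in Cdh1 over Cdh2. Dsp over Cdh2 stood at 71.2 and 101 for BC44, 204 and 173 for HC11, and 0.141 and 0.00157 for C57MG. Over the 9 other genes, the median log2 ratio to Cdh2 on the RPKM + 1 scale was 5.36 in BC44, 5.54 in HC11 and -2.66 in C57MG. Perp was the exception in C57MG, at 20.2 and 18.1 times the RPKM of Cdh2.

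Epcam, whose product forms weak contacts between epithelial cells and regulates claudins, was the only one of the 10 genes that was called higher in HC11 than in BC44. It was at 118 and 92.1 RPKM in BC44, at 242 and 163 RPKM in HC11, and at 0.949 and 0 RPKM in C57MG. Both HC11 libraries were above both BC44 libraries, and the 2 HC11 libraries lay far apart. The difference between BC44 and HC11 was -0.92 on the log2(RPKM + 1) scale (SE 0.32, limma adjusted p = 0.0461). That call sat at the threshold: it was lost without the expression filter (adjusted p = 0.0518), after quantile normalization (0.0712) and in other settings, over which the limma adjusted p reached 0.467. It was kept in a fit of the BC44 and HC11 libraries alone (limma adjusted p = 0.0131). With the replicate number as a block it was also kept (limma adjusted p = 0.00106). Against C57MG, Epcam was higher by 6.24 in BC44 and by 7.16 in HC11 (SE 0.32 each, limma adjusted p = 1.76e-06 and 1.05e-06). The latter was the largest difference of any of the 10 genes.

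The desmosomal cadherins Dsg2 and Dsc2, a desmoglein and a desmocollin, were the lowest of the desmosome genes in BC44 and HC11. Dsg2 was at 11.4 and 10.8 RPKM in BC44, at 11.6 and 10.3 RPKM in HC11, and at 0.054 and 0.008 RPKM in C57MG. BC44 and HC11 overlapped for Dsg2 (difference 0.02, SE 0.11, limma adjusted p = 0.917). Dsc2 was at 16.7 and 14.4 RPKM in BC44, at 7.46 and 6.72 RPKM in HC11, and at 0.105 and 0.012 RPKM in C57MG. Unlike Dsg2 it did not overlap between BC44 and HC11, with a difference of 1.03 (SE 0.12, limma adjusted p = 0.000380). The ratio of Dsc2 to Dsg2 RPKM was 1.47 and 1.34 in BC44 and 0.642 and 0.653 in HC11, so the more abundant of the pair was Dsc2 in BC44 and Dsg2 in HC11. Against C57MG, Dsg2 was higher by 3.55 and 3.53 and Dsc2 by 3.97 and 2.93 in BC44 and HC11 (SE 0.11 for Dsg2 and 0.12 for Dsc2). The highest limma adjusted p of these 4 differences was 7.36e-07. Both genes lie on chromosome 18, which also holds Cdh2.

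The plaque genes Jup, Pkp3 and Dsp were more abundant per length than Dsg2 and Dsc2 in BC44 and HC11. Jup encodes plakoglobin, which sits in both desmosomes and adherens junctions. It was at 193 and 185 RPKM in BC44, at 112 and 91.9 RPKM in HC11, and at 1.54 and 0.020 RPKM in C57MG. Jup did not overlap between BC44 and HC11, but its difference of 0.88 did not pass (SE 0.36, limma adjusted p = 0.0809). The model shares 1 estimate of the spread over the 3 lines, and the 2 C57MG libraries differed for Jup: in a fit of the BC44 and HC11 libraries alone the same difference had a limma adjusted p of 0.00157. Pkp3, a plakophilin, was at 47.8 and 52.9 RPKM in BC44, at 34.8 and 29.8 RPKM in HC11, and at 0.857 and 0.305 RPKM in C57MG. Pkp3 was higher in BC44 than in HC11 by 0.63 (SE 0.17, limma adjusted p = 0.0196), a call that was lost without either BC44 library, without HC11 replicate 2 and with a pseudocount of 0.1 (adjusted p up to 0.191).

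Dsp, desmoplakin, was at 144 and 146 RPKM in BC44, at 68.2 and 53.9 RPKM in HC11, and at 1.17 and 0.013 RPKM in C57MG. BC44 exceeded HC11 by 1.25 (SE 0.31, limma adjusted p = 0.0135), and this call was lost in the same settings as that of Pkp3 (adjusted p up to 0.33, with a pseudocount of 0.1). All 3 plaque genes were higher in BC44 and HC11 than in C57MG. The differences of BC44 from C57MG were 6.88 for Jup, 5.04 for Pkp3 and 6.63 for Dsp, and those of HC11 from C57MG were 6.00, 4.41 and 5.38 (SE 0.36, 0.17 and 0.31). The highest limma adjusted p among them was 4.91e-06. Without Perp, the 5 desmosome genes summed to 413 and 409 RPKM in BC44, 234 and 193 RPKM in HC11, and 3.72 and 0.358 RPKM in C57MG. Within that sum Jup held 45.1% to 48.0% and Dsp 28.0% to 35.7% in the BC44 and HC11 libraries, and the total was lower in HC11. The shares were not the same in both lines: Dsg2 held 2.76% and 2.63% in BC44 but 4.96% and 5.34% in HC11, and Dsp held 35.0% and 35.7% against 29.1% and 28.0%.

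Among the 10 genes, Perp did not follow the other desmosome genes. It encodes a tetraspan membrane protein that is a target of p53 and of its relative p63 and is needed for desmosome assembly in stratified epithelia. Perp was at 792 and 680.1 RPKM in BC44, at 218 and 207 RPKM in HC11, and at 167 and 150 RPKM in C57MG. It was the most abundant of the 10 genes in all 3 lines by mean RPKM. BC44 exceeded HC11 by 1.78 and C57MG by 2.21 (SE 0.10 each, limma adjusted p = 1.14e-05 and 9.63e-07). HC11 exceeded C57MG by only 0.42 (SE 0.10, limma adjusted p = 0.00631), and without C57MG replicate 2 this difference was 0.34 and did not pass (adjusted p = 0.0527). In C57MG, Perp was at 22.7% and 20.4% of its BC44 mean.

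Promoter sequences were taken from the RefSeq table used here (GRCm38.p6) for 3 of the 10 genes, Epcam, Dsp and Jup. They are shown because all 3 genes were high in BC44 and HC11 and at or near 0 in C57MG. None was taken for Cdh1, Cdh2, Cdh3, Dsg2, Dsc2, Pkp3 and Perp. Whether that table holds promoters for these other genes is not reported here, so their absence says nothing about availability. The 250 bases before each start site are given 5′ to 3′ on the gene's strand, at chr17:87635729-87635978 (plus strand) for Epcam, chr13:38151044-38151293 (plus strand) for Dsp and chr11:100397791-100398040 (minus strand) for Jup. Capitals mark matches on either strand to CAGGTG, the E-box bound by Snail and Zeb repressors. AACCGGTT, the Grainyhead-like site, and TATAAA, the TATA box, were searched in the same way, and none of the 3 motifs contains another.
Epcam: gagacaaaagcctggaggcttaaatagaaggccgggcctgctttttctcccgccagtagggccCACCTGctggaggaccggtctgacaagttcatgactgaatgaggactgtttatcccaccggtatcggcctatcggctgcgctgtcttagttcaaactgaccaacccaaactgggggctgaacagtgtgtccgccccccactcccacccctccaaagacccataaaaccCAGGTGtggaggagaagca
Dsp: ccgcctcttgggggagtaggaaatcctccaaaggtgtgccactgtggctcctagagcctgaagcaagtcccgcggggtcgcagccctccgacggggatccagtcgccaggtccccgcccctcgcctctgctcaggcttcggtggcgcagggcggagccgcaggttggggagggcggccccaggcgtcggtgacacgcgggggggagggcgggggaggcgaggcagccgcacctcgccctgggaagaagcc
Jup: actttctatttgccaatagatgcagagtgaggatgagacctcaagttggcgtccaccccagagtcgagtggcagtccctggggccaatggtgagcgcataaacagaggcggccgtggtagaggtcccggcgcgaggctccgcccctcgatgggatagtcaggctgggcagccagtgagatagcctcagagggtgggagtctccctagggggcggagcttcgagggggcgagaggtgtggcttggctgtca
The bases after the start in the table were found in an annotated transcript for Epcam and Dsp but not for Jup, so the Jup start site, and with it the window, is uncertain. The Epcam window held 2 E-boxes, beginning 187 and 19 bases before the start site, and the Dsp and Jup windows held none. One further CAGGTG began at base 4 after the Dsp start, outside the window shown. Of 32851 promoter windows of 250 bases, 17.2% held at least 1 E-box and 2.06% held at least 2. AACCGGTT was in 0.116% and TATAAA in 12.4% of all windows and in none of these 3. GC content was 56.4% for Epcam, 72.4% for Dsp and 62.0% for Jup. These matches describe the letters only.

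Counted together, the 10 genes split C57MG from the other lines more than they split BC44 from HC11. Between BC44 and C57MG all 10 were called, 9 higher in BC44 and 1, Cdh2, higher in C57MG. Of the 10759 genes tested 71.7% were called in this comparison, 37.5% as higher in BC44 and 34.1% as higher in C57MG. Between HC11 and C57MG all 10 were called, 9 higher in HC11 and Cdh2 in C57MG, where 70.5% of all genes tested were called, 37.4% as higher in HC11 and 33.2% as higher in C57MG. Calls were so common in both comparisons that the sizes say more than the counts. In BC44 against C57MG 9 of 10 were called with a 4-fold or larger difference on the log2(RPKM + 1) scale, all higher in BC44, against 11.5% of all genes tested, 5.52% higher in BC44 and 5.94% in C57MG. In HC11 against C57MG 9 of 10 passed that size, 8 higher in HC11 and Cdh2 in C57MG, against 10.1% of all genes tested, 5.43% higher in HC11 and 4.65% in C57MG. The gene under that size was Cdh2 in the first, whose ratio of mean RPKM without the pseudocount was 4.76, and Perp in the other. The libraries did not overlap for any of the 10 genes in either comparison, where 87.9% and 86.2% of all genes tested did not. The median difference of the 10 was 5.64 for BC44 over C57MG and 4.22 for HC11 over C57MG, against 0.04 and 0.03 over all genes tested. These 2 comparisons share the C57MG libraries.

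Between BC44 and HC11, 7 of 10 were called, 6 higher in BC44 (Cdh3, Cdh2, Dsc2, Pkp3, Dsp and Perp) and 1 in HC11 (Epcam), where 47.7% of all genes tested were called, 24.7% as higher in BC44 and 23.0% as higher in HC11. Cdh1, Dsg2 and Jup did not pass. The median difference was 0.96 against 0.02 over all genes tested, and on the log2(RPKM + 1) scale only Cdh3 was called with a 4-fold or larger difference, as were 3.88% of all genes tested, 1.57% higher in BC44 and 2.31% in HC11. By ratio of mean RPKM, Cdh2 also passed that size (5.39). The libraries did not overlap for 9 of 10 genes, where 73.0% of all genes tested did not. With a pseudocount of 0.1, 4 of 10 were called (Cdh2, Cdh3, Dsc2 and Perp), where 4946 of the 10759 genes tested were called. That count was near the share over all genes. Without BC44 replicate 1 the differences of these 4 genes were 0.89, 2.19, 0.93 and 1.67. Without BC44 replicate 2 they were 1.19, 2.26, 1.13 and 1.89.

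**Figure D3:**
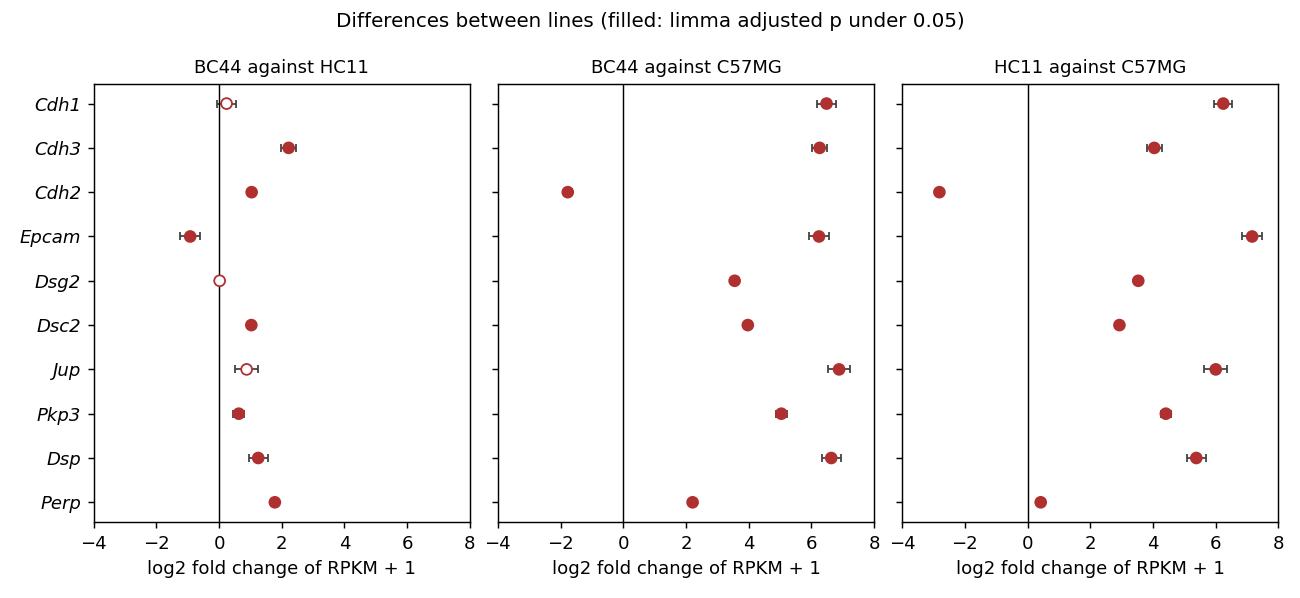
Differences between lines for the 10 genes (horizontal axis, log2 fold change of RPKM + 1, first-named line minus second; bars are the SE from limma), with filled points for a limma adjusted p under 0.05. Cdh2 lies left of 0 in both comparisons with C57MG, and the BC44 against HC11 differences stay between -0.92 and 2.22.

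The order of the levels by mean RPKM differed between the lines. In BC44 it was Perp, Jup, Dsp, Cdh1, Cdh3, Epcam, Pkp3, Dsc2, Dsg2 and Cdh2, and only Cdh3 and Epcam overlapped among neighbours. In HC11 it was Perp, Epcam, Cdh1, Jup, Dsp, Pkp3, Cdh3, Dsg2, Dsc2 and Cdh2, with overlaps between Perp and Epcam and between Cdh1 and Jup. Epcam thus ranked 2 in HC11 and 6 in BC44, while Cdh3 ranked 5 in BC44 and 7 in HC11. In C57MG, Perp and Cdh2 stood apart at 159 and 8.27 RPKM, and the other 8 genes, all with means under 1 RPKM, each overlapped the next.

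The 2 C57MG libraries differed for the genes that this line hardly expressed. In replicate 1, Cdh1, Cdh3, Epcam, Dsg2, Dsc2, Jup and Dsp were at 0.487% to 0.903% of their BC44 mean, while Pkp3 was at 1.70%. In replicate 2, Cdh1 and Epcam were listed at 0, and Dsp, Dsg2, Dsc2 and Jup were at or under 3 estimated reads. Cdh3 kept an estimated 6 reads and Pkp3 an estimated 17 reads, or 0.606% of its BC44 mean. In replicate 1, the median over 11 genes private to BC44 was 0.729% of the BC44 mean, and in replicate 2 it was 0. The ratio of Cdh3 to Cdh1 in C57MG replicate 1 was 0.895. That lay within the 0.827 to 0.905 of the BC44 libraries and apart from the 0.206 to 0.217 of HC11. Other ratios in C57MG replicate 1 went both ways. Jup to Dsp, at 1.32, lay within the BC44 libraries (1.33 and 1.26). So did Jup to Cdh1, at 1.41 (1.40 and 1.54), and Dsp to Cdh1, at 1.07 (1.05 and 1.22). Pkp3 to Dsp, at 0.734, and Dsc2 to Dsg2, at 1.94, lay outside them (0.331 and 0.362, and 1.47 and 1.34). Also outside were Epcam to Cdh1, at 0.871 (0.860 and 0.770), Dsg2 to Dsp, at 0.0463 (0.0789 and 0.0737), and Dsc2 to Dsp, at 0.0900 (0.116 and 0.0985). Dsc2 and Dsg2 had only an estimated 10 and 8 reads in that C57MG library. The part of the signal of BC44-private genes in the replicate 1 values was not tested. Without C57MG replicate 1 all 10 genes kept the direction of their difference in both comparisons with C57MG.

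**Figure D4:**
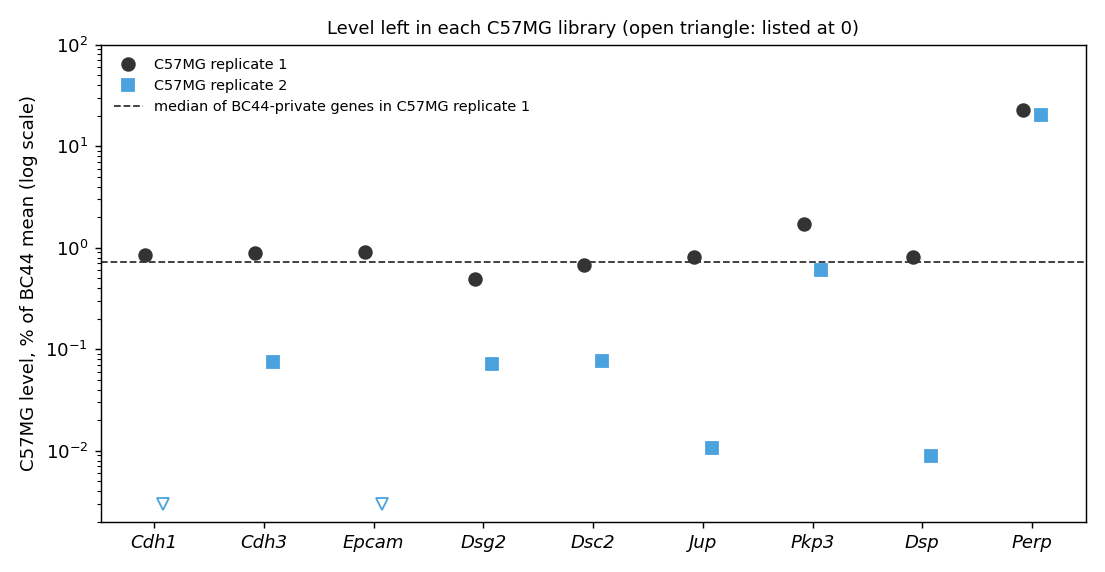
Level of 9 genes in each C57MG library as a percentage of the BC44 mean (vertical axis, log scale; open triangles at the bottom mark genes listed at 0); the dashed line is the median of the genes private to BC44 in C57MG replicate 1. Replicate 1 lies near that line for 7 genes, Pkp3 is above it, and Perp is at 22.7% and 20.4%.

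Other genes of the same structures were counted from lists of pathway members. Each count is to be read against all genes tested, of which 37.5% were called higher in BC44 and 34.1% in C57MG, 37.4% in HC11 and 33.2% in C57MG, and 24.7% in BC44 and 23.0% in HC11. Of 13 further desmosome and plaque genes 9 were listed and tested. Between BC44 and C57MG 6 were higher in BC44 and 2 in C57MG, and between HC11 and C57MG 4 were higher in HC11 and 1 in C57MG, and 4 of 9 is near the share over all genes. Between BC44 and HC11 5 were higher in BC44 and 2 in HC11. Pkp1, a plakophilin of stratified epithelia, was at 144 and 141 RPKM in BC44, 141 and 132 RPKM in HC11, and 2.10 and 0.684 RPKM in C57MG. Dsg3, a desmoglein of basal keratinocytes, was at 123 and 124 RPKM in BC44, 39.1 and 32.3 RPKM in HC11, and 1.19 and 0 RPKM in C57MG, so its level exceeded that of Dsg2 in BC44 and HC11. The plakin genes Ppl and Evpl, which encode periplakin and envoplakin, were higher in both lines than in C57MG, Ppl by 4.71 and 3.37 and Evpl by 4.14 and 4.57 in BC44 and HC11. The highest limma adjusted p of these 4 was 5.26e-07.

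Genes of the adherens junction, among them catenins, which bind the cadherin tails, were split between the lines. Of 20 adherens junction genes 12 were listed and tested. Between BC44 and C57MG 8 were higher in BC44 and 4 in C57MG, where 37.5% and 34.1% of all genes tested were, with a median difference of 0.48. Between HC11 and C57MG 5 were higher in HC11 and 4 in C57MG, near the 37.4% and 33.2% of all genes tested, with a median of -0.02. Between BC44 and HC11 8 were higher in BC44 and 3 in HC11, where 24.7% and 23.0% of all genes tested were, with a median of 0.68. The 4 in C57MG and the 3 in HC11 were near those shares. The named genes of this list were Plekha7, Camsap3, Shroom3 and Ablim1, which act at junctions with microtubules or actin. Camsap3 was higher in BC44 than in C57MG by 3.39, Shroom3 by 2.73, Plekha7 by 2.36 and Ablim1 by 1.08 (limma adjusted p at most 0.00158). Against C57MG in HC11, Camsap3 was higher by 2.32, Shroom3 by 1.72 and Plekha7 by 0.93, while Ablim1 was lower, at -1.35 (limma adjusted p at most 0.000508). Chosen after the values were seen, Ctnnb1, which encodes beta-catenin, was at 246 and 221 RPKM in BC44, 181 and 159 RPKM in HC11, and 182 and 187 RPKM in C57MG. Ctnna1, alpha-catenin, also chosen afterwards, was at 49.7 and 51.9 RPKM in BC44 and at 98.0 to 110.0 RPKM in the other 4 libraries.

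Other cadherins were counted next. Of 36 further cadherin genes 12 were listed and 11 tested. Between BC44 and C57MG 9 were higher in BC44 and 2 in C57MG, and between HC11 and C57MG 10 were higher in HC11 and 1 in C57MG, where 37.5% and 37.4% of all genes tested were higher in BC44 and HC11. Between BC44 and HC11 5 were higher in BC44 and 2 in HC11, where 24.7% and 23.0% of all genes tested were. The 2 of 11 were near that share. Celsr1, an atypical cadherin of planar cell polarity, was at 13.9 and 13.5 RPKM in BC44 and at 0.158 to 0.721 RPKM in the other 4 libraries. Celsr2 and Fat2 were likewise highest in BC44, at 18.2 and 13.7 RPKM and at 14.6 and 12.8 RPKM. Pcdh19, a protocadherin, had the pattern of Cdh2, at 9.82 and 9.45 RPKM in C57MG and under 1 RPKM elsewhere, with differences of -2.76 and -3.13 for BC44 and HC11 (SE 0.10 each, limma adjusted p = 3.76e-07 and 3.15e-07).

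Partners of Epcam were, like it, mostly higher in BC44 and HC11 than in C57MG. Of 7 such genes 5 were listed and tested, and 4 were higher in BC44 and 5 in HC11 than in C57MG, with none lower, where 37.5% and 37.4% of all genes tested were higher. Between BC44 and HC11 1 was higher in BC44 and 2 in HC11, where 24.7% and 23.0% of all genes tested were. The 1 of 5 was near that share. Spint1 and Spint2, which encode inhibitors of the protease matriptase, and St14, which encodes matriptase, were higher in both lines than in C57MG by 4.41 to 6.71. The highest limma adjusted p among these was 4.15e-07.

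Regulators of cadherin genes were counted as well. Of 19 genes, all listed, 18 were tested. Between BC44 and C57MG 12 were higher in BC44 and 5 in C57MG, where 37.5% and 34.1% of all genes tested were. Between HC11 and C57MG 11 were higher in HC11 and 6 in C57MG, where 37.4% and 33.2% of all genes tested were. The 5 and the 6 were near those shares. BC44 and HC11 each had 7 higher genes when compared with each other, where 24.7% and 23.0% of all genes tested were higher. Twist1 and Twist2, repressors of Cdh1 in mesenchymal cells, were at 29.7 and 28.7 RPKM and at 22.7 and 25.04 RPKM in C57MG and at most 5.36 RPKM elsewhere. Grhl2, an activator of epithelial junction genes, was at 23.4 and 23.3 RPKM in BC44, 17.3 and 14.3 RPKM in HC11, and 0.191 and 0.035 RPKM in C57MG. Klf5 had a like pattern, with differences of 4.84 and 4.36 from C57MG (SE 0.17 each, limma adjusted p = 3.28e-07 and 5.79e-07). Snai2, chosen after the values were seen, is also a Cdh1 repressor but differed from the Twist genes and was highest in BC44, at 32.1 and 42.9 RPKM, against 10.8 and 10.0 RPKM in HC11 and 7.85 and 6.58 RPKM in C57MG. The repressors Snai1, Zeb1 and Zeb2, also chosen afterwards, were highest in C57MG. Snai1 was at 2.28 and 2.72 RPKM in BC44, 22.3 and 25.6 RPKM in HC11, and 46.6 and 44.8 RPKM in C57MG. Zeb1 was at 10.6 and 11.3 RPKM and Zeb2 at 4.13 and 3.79 RPKM in C57MG, with at most 0.623 and 1.45 RPKM elsewhere.

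The genes with the profile most like each cadherin were found by Pearson's r of log2(RPKM + 1) over the 6 libraries, which form 3 pairs, so r is given as a description only. For Cdh1 they were Slc29a2 (r = 0.9994), Tmem54 (0.9993) and Dock8 (0.9991). Only Tmem54 also had the size of the difference, with 77.9 and 75.8 RPKM in BC44 and 0.589 and 0 RPKM in C57MG. For Cdh3 they were Cnpy4 (r = 0.9994), Fam192a (0.9992) and Psmd7 (0.9991), all of which stayed above 12 RPKM in C57MG. For Cdh2 they were Myo7a (r = 0.9992), Ctla2a (0.9992) and Sorbs3 (0.9990), and Myo7a was also near it in level, at 10.6 and 9.62 RPKM in C57MG. Among the 10 genes, r to Cdh1 was highest for Jup (0.996), Dsg2 (0.995) and Pkp3 (0.995) and lowest for Perp (0.672) and Cdh2 (-0.909). To Cdh3 it was highest for Dsc2 (0.991) and Dsp (0.983).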

How the data were processed

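The authors deposited 1 table of RPKM values, per its name, rounded to 3 decimals, with 1 column per library and 11417 genes. STAR and the mouse build mm9 are named in the submitters' processing notes; the read counter, annotation, gene lengths, scaling total and strand setting are not given in the sources used here. No coordinates come from the table; those of the promoter sequences are GRCm38.p6. Without a stated strand setting, reads of overlapping genes cannot be told apart.

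The test was a linear model of log2(RPKM + 1) over all 6 libraries (limma version 3.58.1, R version 4.3.3; moderated variances with a trend), fitted to the 10759 genes with at least 1 RPKM in at least 2 libraries. The other 658 were not tested. P-values were two-sided and Benjamini-Hochberg adjusted within each contrast over all genes tested, with a threshold of 0.05. The scale understates changes of low genes. The model was tested on simulated data.

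Depth was estimated from the steps of low values times exon length (GENCODE M21), for genes of up to 5000 bases. Of the low values 81.6% to 83.2% lay within 0.15 reads of a whole number, against 30.0% by chance, and reads so estimated cover counting error only. Genes private to a line had a mean of at least 20 RPKM there, at most 2% of it in the third line and at most 5% in the other replicate, limits chosen after the data were seen.

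The members and lists were chosen with earlier results of these data known. Text names all members, the 4 tested genes per list with the largest difference between line means, and the 3 genes with the highest r to each cadherin; exceptions are stated, and 1 gene that this rule names is not reported here. Of the genes listed by symbol, those not found are not analysed here. Alternatives were another pseudocount, other filters, quantile and median-ratio scaling, other limma settings, the replicate block and leaving out libraries. Python 3.11.15, pandas 2.3.3, numpy 2.4.6 and matplotlib 3.10.9 were used.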

Additional observations from a re-analysis of the deposited data

How the results depend on the processing

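Over the alternatives run, the 159 values of the 10 genes for BC44 minus C57MG kept direction and call, as did 158 of 159 for HC11 minus C57MG; the exception was Perp, which lost its call without C57MG replicate 2. Between BC44 and HC11, 16 of 159 values lost their call, 5, all of Jup, gained one, and Dsg2 reversed to -0.02 without BC44 replicate 1 and to -0.06 without HC11 replicate 2. The number of the 10 genes called between BC44 and HC11 was 7 as reported and 4 with a pseudocount of 0.1. Of the 10759 genes tested, 5129 and 4946 were called in those settings. The cause of the lower count was not tested. Without C57MG replicate 1 and BC44 replicate 2 together, chosen after seeing the data, Cdh1 exceeded C57MG by 7.11 in BC44 and 6.78 in HC11. The differences of Cdh2 were then -1.61 and -2.81. A pseudocount of 0.1 moved the median log2 ratio to Cdh2 to 5.93 in BC44, 7.17 in HC11 and -4.47 in C57MG, as a smaller pseudocount widens ratios with low values. Cdh2 did not reach a mean of 5 RPKM and had no value under that filter.

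The libraries share only a replicate number. Across genes, deviations of libraries with equal numbers correlated at 0.354 (BC44 with HC11), -0.039 (BC44 with C57MG) and 0.038 (HC11 with C57MG). With the replicate block, 8 of the 10 genes were called between BC44 and HC11, where 5350 of the 10759 genes tested were called. In BC44 and HC11 against C57MG 10 were called in each, where 7875 and 7721 of all genes tested were. Jup was the gained call between BC44 and HC11 (limma adjusted p = 0.0228). In C57MG, 3 reads correspond to 0.0172 to 0.0997 RPKM over the genes other than Cdh2, and lower values cannot be told from 0.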

Other observations

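Genes of cadherin turnover were counted from a list of proteases, trafficking and ubiquitin genes. Of 16 genes 14 were listed and tested, and 3 were higher in BC44 and 8 in C57MG between those lines. HC11 and C57MG each had 6 higher genes in their comparison, and in BC44 against HC11 these numbers were 2 and 5. Of all genes tested 37.5% were called higher in BC44 and 34.1% in C57MG, 37.4% in HC11 and 33.2% in C57MG, and 24.7% in BC44 and 23.0% in HC11, so the split of HC11 and C57MG was near that of all genes. Adam10, the main sheddase of E-cadherin and N-cadherin, was at 30.6 and 33.2 RPKM in BC44 and at 67.6 to 91.1 RPKM in the other 4 libraries. Mmp14, a membrane-bound metalloprotease, was at 211 and 203 RPKM in C57MG and at 75.5 to 83.4 RPKM elsewhere, with a difference of -1.37 for both BC44 and HC11 against C57MG (SE 0.08 each, limma adjusted p = 2.96e-06 and 3.48e-06). Ctsl, the lysosomal protease cathepsin L, was highest in HC11 at 581 and 747 RPKM. Mmp3 was listed at 0 in both BC44 and both C57MG libraries and was at 4.85 and 19.9 RPKM in HC11, whose libraries lay far apart. Other adhesion genes also differed between the lines. Dsg1a and Dsg1b, desmogleins of differentiated epidermis, were chosen after their values were seen. Dsg1a was at 6.92 and 9.23 RPKM and Dsg1b at 22.9 and 21.7 RPKM in BC44, and both were under 1 RPKM in the other 4 libraries. These genes are near-identical copies, so their separate values are uncertain: the handling of reads that fit both is not given in the sources used here. Cdsn, corneodesmosin, also chosen afterwards, was at 34.2 and 22.4 RPKM in C57MG and at most 1.07 RPKM elsewhere. Pkp2, a plakophilin likewise chosen afterwards, was lowest in BC44, at 1.31 and 1.29 RPKM. It was at 8.43 and 7.28 RPKM in HC11 and at 7.15 and 7.54 RPKM in C57MG. Pkp4, also chosen afterwards, was at 28.1 to 34.1 RPKM over the 6 libraries, so Perp was not the only such gene kept in C57MG.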
